A study of Mus musculus with 2 samples.

Results

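The genes of fatty acid uptake and oxidation were described in mouse embryonic heart as a set of 36 genes, chosen by symbol from the 43346 mouse genes of the deposited tables. All 36 were found. They were grouped by step into 5 genes of uptake, 5 of activation, 6 of the carnitine shuttle, 3 that set malonyl-CoA, 14 of beta oxidation and 3 of electron transfer. Total RNA above 200 nt was sequenced from hearts at embryonic day 10.5, from strain B6NCrl, with 10 ng of RNA per library and ERCC spike-ins, known amounts of artificial RNA. There was 1 group with 2 biological replicates, and each was a pool of whole hearts of mixed sex, from 69 embryos in replicate 1 and 51 in replicate 2. The labels name no altered allele and no treatment, and no second condition was measured. Comparisons were therefore made between genes and between the pools, with no test of a condition, and a pool does not show how single embryos vary.

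Fatty acids enter a muscle cell after lipoprotein lipase frees them from circulating lipoproteins, and CD36 and fatty acid binding proteins carry them across the membrane and the cytosol. Acyl-CoA synthetases activate them, the carnitine shuttle moves them into mitochondria under the control of malonyl-CoA, and beta oxidation shortens them while electron transfer flavoprotein passes electrons to the respiratory chain. The adult heart draws most of its energy from this pathway, whereas the embryonic heart is known to depend largely on glucose and lactate.

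The libraries held 45205713 and 41070978 expected counts (estimated reads per feature), of which 43295923 and 39786163 lay on mouse genes. All 8 heart muscle markers were detected, led by the troponin Tnnt2 at 1803.6 and 3077.25 TPM, and all 8 were higher in replicate 2 (median log2 ratio 1.03). Liver markers stood apart the other way: 10 of 10 were higher in replicate 1, their summed level was 1349.32 TPM there and 54.42 TPM in replicate 2, and none was at 0. The summed level of 8 macrophage markers was 28.19 and 10.51 TPM, and that of 8 neural markers 44.23 and 32.25 TPM. For the 8 endothelial markers it was 364.84 and 435.18 TPM. The 8 red cell markers had the largest sum of these lists, 28633.8 and 35416.9 TPM, and all 8 were higher in replicate 2 (median 0.36). Markers of mesenchyme and epicardium summed to 1011.05 and 778.85 TPM (6 of 8 higher in replicate 1), and those of skeletal muscle to 13.77 and 7.97 TPM. The 8 fat cell markers summed to 1.23 and 1.33 TPM, with the leptin gene Lep at 0 counts in both pools. In bulk tissue, fewer cells of a type and less RNA per cell cannot be told apart. The part that these cell types had in the member ratios below was not tested.

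Nearly the whole pathway was expressed. A level of at least 1 TPM (a length-scaled relative abundance) in each pool was reached by 34 of the 36, against 31.7% of all mouse genes and 56.9% of nuclear protein-coding genes. The exceptions were Fabp4, a binding protein of fat cells and capillary endothelium, at 1.16 and 0.96 TPM, and Acsl6, a synthetase known mainly from brain and red cells, at 0.94 and 1.03 TPM. Together the 36 genes summed to 3021.75 TPM in the first pool and 3875.53 TPM in the second (mean 3448.64 ± 603.7, SD, n = 2). For scale, the summed level of 22 respiratory chain genes was 14085.9 and 18654.1 TPM, and that of 16 glycolysis genes 17478.4 and 19186.5 TPM. Beta oxidation genes held 45.5% and 46.4% of the member TPM, electron transfer 23.7% and 22.9%, and uptake 20.6% and 19.9%. The carnitine shuttle held 5.70% and 6.52%, activation 3.57% and 3.35%, and the malonyl-CoA genes 0.952% and 0.970%. The shares differed little between the pools, although most single genes did differ.

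**Figure D1:**
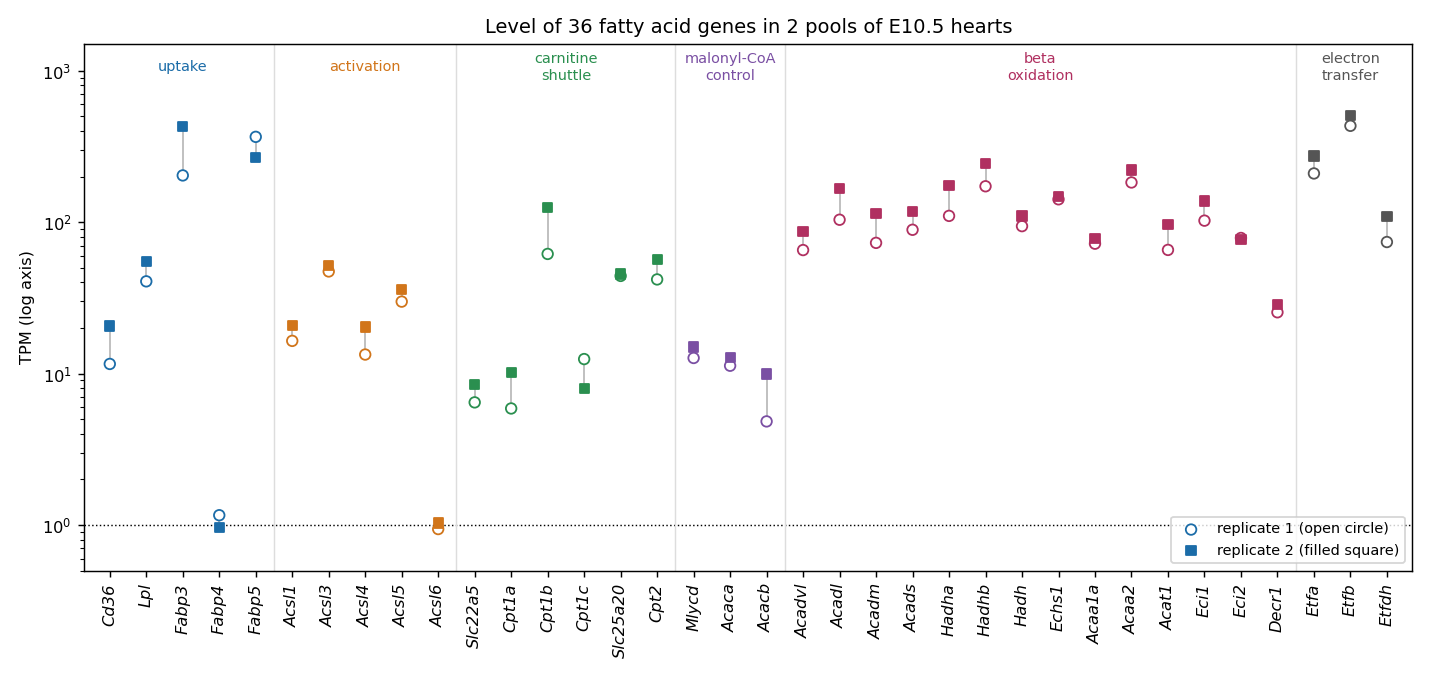
TPM (log axis) of each of the 36 genes in replicate 1 (open circles) and replicate 2 (filled squares), grouped by step, with a dotted line at 1 TPM. Etfb was the most abundant at 432.3 and 505.93 TPM, while Fabp4 and Acsl6 lay near 1 TPM.

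The ratio of the pools was taken as the log2 ratio of TMM-scaled counts, replicate 2 over replicate 1, so that a positive value means higher in replicate 2. All 36 genes had a mean count of 10 or more. Of them 32 were higher in replicate 2, against 49.7% of the 17547 genes with such counts, and 4 were higher in replicate 1, against 50.3%. Those 4 were Cpt1c, Fabp4, Fabp5 and Acsl6. A difference of 2-fold or more in favour of replicate 2 was seen for 3 members (Acacb, Fabp3 and Cpt1b), against 3.71% of all genes, and in favour of replicate 1 for 0 members, against 8.59%. By another measure, the deposited 95% credibility intervals of TPM lay apart with replicate 2 higher for 26 members (15.9% of all genes) and with replicate 1 higher for 2 members (29.2% of all genes), Fabp5 and Cpt1c. They overlapped for the other 8.

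The median member ratio was 0.48 on the log2 scale, against -0.00 over all genes. The spread over all genes between these pools was wide, with a central 95% from -2.15 to 1.13 and quartiles at -0.30 and 0.28. By that spread 34 members lay within the central 95%, and only Acacb and Fabp3 lay above it. Above the upper quartile of all genes lay 26 members, and below the lower quartile lay 3. No member difference other than those of Acacb and Fabp3 was thus larger than this spread, though Cpt1b (1.131) lay just under its limit (1.134). The spread depends on the genes counted. Among genes with a mean count of 100 or more, 2.15% were 2-fold or more higher in replicate 2. The upper 2.5% limit there thus lay below a log2 ratio of 1, and Cpt1b lay above it.

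Other energy genes had ratios of like size. The median was 0.48 for 22 respiratory chain genes (22 higher in replicate 2), 0.51 for 12 citrate cycle genes (12 higher) and 0.36 for 16 glycolysis genes (15 higher). For 20 sarcomere genes, the contractile proteins of muscle, the median was 0.87, and 5 members lay above it. These 5 were Acacb, Fabp3, Cpt1b, Cd36 and Cpt1a. Of the members, 19 lay above the respiratory chain median and 17 below it. All these lists share the same pair of libraries, and their ratios are given side by side as descriptions.

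**Figure D2:**
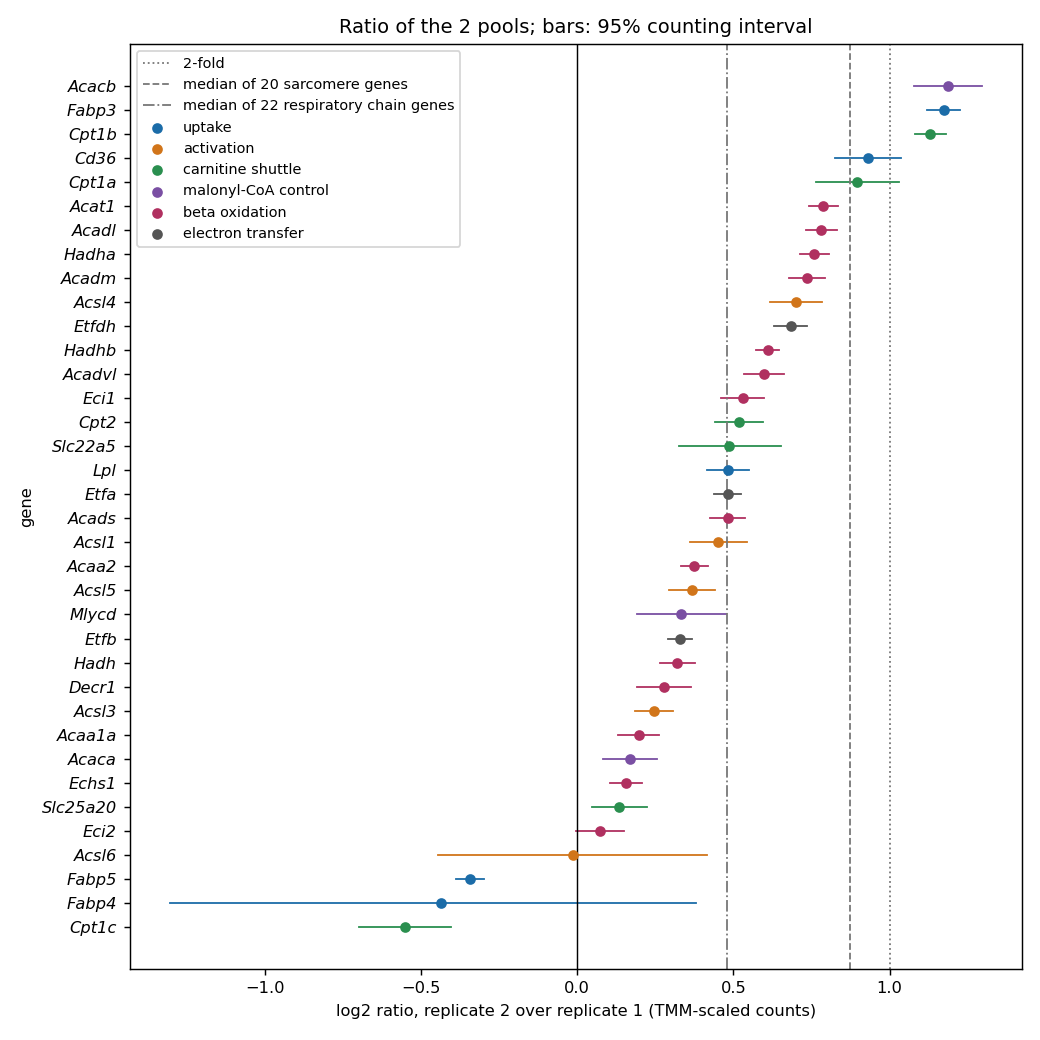
Log2 ratio of replicate 2 over replicate 1 for each gene, coloured by step, with 95% counting intervals and lines at 2-fold and at the medians of 20 sarcomere genes (0.87) and 22 respiratory chain genes (0.48). Acacb, Fabp3 and Cpt1b lay beyond 2-fold, and Cpt1c, Fabp4 and Fabp5 lay farthest below 0.

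Among the uptake genes, the heart and muscle fatty acid binding protein Fabp3 (ENSMUSG00000028773.8, mm10 chromosome 4, 130308595 to 130315463, plus strand) had 203.31 TPM in the first pool and 427.37 TPM in the second. Its log2 ratio was 1.17 (95% counting interval 1.12 to 1.23). Fabp5, the epidermal binding protein, which is also made in endothelium and macrophages (chromosome 3, 10012548 to 10016607, plus strand), went the other way, with 365.52 and 266.87 TPM and a ratio of -0.34 (-0.39 to -0.30), which shrank to -0.02 under spike-in scaling. The leading binding protein therefore differed between the pools. Fabp5 was 1.80-fold above Fabp3 in replicate 1, and Fabp3 was 1.60-fold above Fabp5 in replicate 2. Of 14 gene pairs compared by whole-gene TPM, this was the 1 pair whose order differed, while 13 kept theirs. Macrophage markers were also lower in replicate 2 (8 of 8, median -1.21), and 7 of 8 endothelial markers were higher there (median 0.56).

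The fatty acid translocase Cd36 (chromosome 5, 17781690 to 17888801) stood at 11.57 and 20.63 TPM, with a ratio of 0.93 (0.82 to 1.04). Lipoprotein lipase, Lpl (chromosome 8, 68880491 to 68907448), was the more abundant of the pair in both pools by whole-gene TPM, at 40.62 and 54.75 TPM. On protein-coding transcripts alone Lpl had 16.57 and 20.1 TPM, against 11.57 and 20.63 TPM for Cd36. By that measure Lpl was the higher in replicate 1 only. Fabp4 had 34 and 21 counts, and its interval (-1.30 to 0.38) spanned 0, so a difference was not detectable at this depth. Gpihbp1, which anchors Lpl to capillary endothelium and is no member, had 7 counts in each pool. Pseudogenes nearly identical to Fabp3 and Fabp5 held counts equal to 1.47% and 1.97% of those of Fabp3 and 0.570% and 0.400% of those of Fabp5. The exons of Fabp3 also overlap those of Zcchc17 on the other strand over 81 nt, and no label or header says whether strand was used in counting.

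Acsl3 was the most abundant synthetase mRNA. This enzyme of the endoplasmic reticulum and lipid droplets had 47.22 and 51.67 TPM, followed by Acsl5 at 29.85 and 35.9 TPM. Acsl1, the main synthetase of the adult heart, was lower at 16.43 and 20.79 TPM, so that Acsl3 exceeded it 2.87-fold and 2.48-fold. Acsl4, which prefers arachidonic acid, lay close to Acsl1 at 13.35 and 20.26 TPM, and it had the highest ratio of the family, 0.70 (0.62 to 0.78). Acsl6 rested on 102 and 85 counts, and its ratio of -0.01 (-0.45 to 0.42) changed sign when taken from deposited TPM (0.13) or after spike-in scaling (0.31). Its deposited TPM also lay below its own credibility interval in both pools, since those bounds belong to a posterior mean. The exons of Acsl3 share 244 nt with Utp14b on the same strand, and those of Acsl5 share 404 nt with Zdhhc6 on the other.

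In the carnitine shuttle, the muscle form of carnitine palmitoyltransferase, Cpt1b (ENSMUSG00000078937.4, chromosome 15, 89416405 to 89425863, minus strand), prevailed. Its level was 61.62 TPM in the first pool and 124.19 TPM in the second. The liver form Cpt1a (chromosome 19, 3322334 to 3385733) stood at 5.88 and 10.21 TPM, and the brain form Cpt1c (chromosome 7, 44959372 to 44974851) at 12.46 and 7.93 TPM. Cpt1b was thus 10.5-fold and 12.2-fold above Cpt1a, an order found in both pools. Against Cpt1c its lead was 4.94-fold in replicate 1 and 15.6-fold in replicate 2, because those genes differed between the pools in opposite directions.

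The ratio of Cpt1b was 1.13 (1.08 to 1.18), that of Cpt1a 0.90 (0.76 to 1.03) and that of Cpt1c -0.55 (-0.70 to -0.40, or -0.23 under spike-in scaling). Cpt1a was higher in replicate 2, the pool with fewer liver transcripts, and Cpt1c was higher in replicate 1. There 8 of 8 neural markers were also higher (median -1.31), but only 3 reached 1 TPM in both pools. Liver (10 of 10), macrophage (8 of 8) and skeletal muscle markers (5 of 5 with enough counts) were higher in replicate 1 too. Heart muscle (8 of 8), endothelial (7 of 8) and red cell markers (8 of 8) were higher in replicate 2. The part of any cell type in these ratios was not tested. Downstream, Cpt2, which returns acyl groups to CoA inside the mitochondrion, had 41.82 and 56.29 TPM. The carnitine-acylcarnitine carrier Slc25a20 differed least in this step, with 44.12 and 45.48 TPM and a ratio of 0.14. The carnitine importer Slc22a5 was low at 6.45 and 8.42 TPM. Its neighbour Slc22a21 matched it at 98.3% identity over 831 nt and held counts equal to 15.6% and 22.3% of its own, so how reads were split between these genes is uncertain.

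Malonyl-CoA, the inhibitor of carnitine palmitoyltransferase at the outer membrane, is made by the acetyl-CoA carboxylases Acaca and Acacb and removed by malonyl-CoA decarboxylase, Mlycd. Acacb, the mitochondrial form of heart and muscle (ENSMUSG00000042010.12, chromosome 5, 114146535 to 114250761), had 4.83 and 9.92 TPM and the highest ratio of the set, 1.19 (1.08 to 1.30). Acaca, the cytosolic form that feeds fatty acid synthesis, was near level at 11.26 and 12.71 TPM (0.17), and its TPM intervals overlapped. Its lead over Acacb by whole-gene TPM was 2.33-fold in replicate 1 and 1.28-fold in replicate 2. The lead was wider on protein-coding transcripts alone, where Acaca had 10.64 and 12.24 TPM and Acacb 2.54 and 7.1 TPM. Mlycd stood between them in ratio, at 12.67 and 14.96 TPM (0.33, interval 0.19 to 0.48).

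The transcripts of Acacb also differed between the pools. A transcript typed as a retained intron, Acacb-204, held 47.3% of the TPM of the gene in replicate 1 and 26.8% in replicate 2, and the protein-coding Acacb-202 held 16.2% and 33.2%. Summed over protein-coding transcripts, Acacb stood at 2.54 and 7.10 TPM, while its retained intron transcripts stood at 2.29 and 2.83 TPM. The TPM intervals of Acacb-204 itself overlapped (1.87 to 2.68 and 2.09 to 3.35). The leading transcript was the same in both pools for 28 of the 30 members with more than 1 transcript, and Acacb and Acsl6 were the exceptions. Both exceptions are uncertain. In replicate 2 Acacb-202 (33.2%) barely led Acacb-201 (32.9%), and by mean share of counts Acacb-201 led. The leading Acsl6 transcripts held 38.36 counts in replicate 1 and 37.23 in replicate 2. At least 90% of TPM lay on protein-coding transcripts in both pools for 31 members.

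Some other members were mixtures. Lpl-203, a transcript of 1900 nt typed as a target of nonsense-mediated decay, held 58.4% and 62.0% of Lpl TPM, but 38.8% and 42.7% of its counts, since TPM divides by length and Lpl-201 is 4115 nt long. For Hadha, transcripts typed as processed transcript in the annotation used here held 80.3% and 82.4% of TPM, and the protein-coding type 16.2% and 14.7%. Among these was Hadha-204, a transcript of 323 nt with 29.2% and 28.9% of TPM and 3.27% and 3.25% of counts. The retained intron share of Acadvl was 19.3% and 11.2%, and that of Acaa1a was 9.01% and 8.05%.

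**Figure D3:**
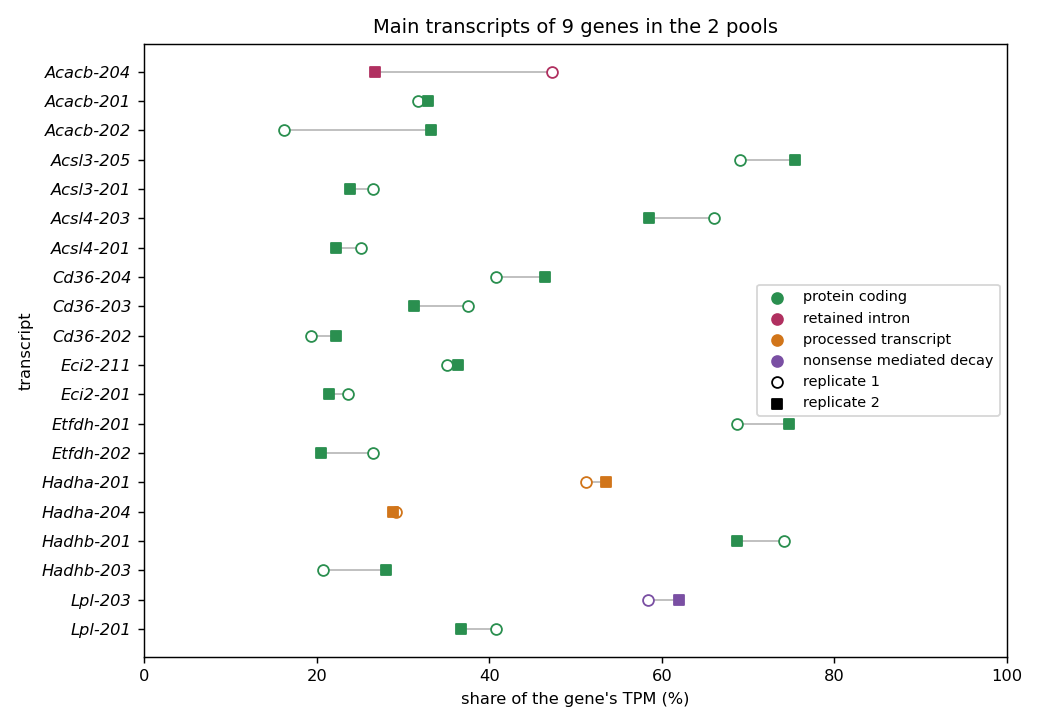
Share of the TPM of each gene held by its main transcripts in replicate 1 (open circles) and replicate 2 (filled squares) for 9 genes, coloured by annotated type. Acacb-204 moved from 47.3% to 26.8% and Acacb-202 from 16.2% to 33.2%, while Hadha-201 was at 51.2% and 53.5%.

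All 14 beta oxidation genes were detected and higher in replicate 2, against 49.7% of all genes with a mean count of 10 or more. Their ratios ran from 0.07 to 0.79 with a median of 0.51. None differed 2-fold, which few of all genes did (3.71% higher in replicate 2 and 8.59% in replicate 1). The first step is split by chain length among acyl-CoA dehydrogenases. Acadl, the long-chain enzyme, led at 103.65 and 165.78 TPM. Acads, the short-chain enzyme, had 88.98 and 117.16 TPM, the medium-chain Acadm 72.92 and 114.65 TPM, and the very-long-chain Acadvl 65.36 and 86.24 TPM. This order held in both pools, although Acads and Acadm were close in replicate 2. The ratios were 0.78 for Acadl, 0.74 for Acadm, 0.60 for Acadvl and 0.48 for Acads. The exons of Acadvl share 1151 of 2686 nt with Dvl2 on the other strand, which had 2757 and 1866 counts, so its level is uncertain.

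The trifunctional protein, which hydrates, oxidises and cleaves long-chain intermediates, is built of the subunits encoded by Hadha and Hadhb. Hadha had 109.91 and 173.9 TPM and Hadhb 172.39 and 243.99 TPM. Both were higher in replicate 2, by 0.76 (0.71 to 0.80) and 0.61 (0.57 to 0.65). Hadhb was the higher of the pair in each pool, by 1.57-fold and 1.40-fold. They lie head to head on chromosome 5, Hadha on the minus strand (30118304 to 30155162) and Hadhb on the plus strand (30155248 to 30184593). The 85 bases between their annotated starts hold no annotated exon and are shown because these genes share them as a start region. The sequence is from RefSeq promoter windows (GRCm38.p6, which is mm10), plus strand, chr5:30155163-30155247, with capitals marking GGGCGG.
Hadha-Hadhb spacer: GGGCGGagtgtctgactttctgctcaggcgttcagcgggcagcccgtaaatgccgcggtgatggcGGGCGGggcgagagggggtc

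The spacer held 2 such matches and was 69.4% G or C. GGGCGG, the core of the GC box bound by SP factors, was sought on either strand in the 250 bases before each RefSeq start. For some members that start lies inside the annotated gene. GGGCGG was found for 19 of the 29 members with a promoter entry. Some members have more than 1 window, and by window it was found in 21 of 32, against 32.7% of all 32851 windows. The windows of Hadha and Hadhb share 228 of 250 bases.

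Ratios in the rest of the step ranged widely. Hadh, the short-chain hydroxyacyl-CoA dehydrogenase, had 94.03 and 109.57 TPM (0.32), and the short-chain hydratase Echs1 had 141.41 and 147.88 TPM (0.16). The mitochondrial thiolase Acaa2 (chromosome 18, 74779197 to 74806208) was among the most abundant at 182.66 and 220.91 TPM. Acat1, the thiolase of acetoacetyl-CoA that also serves ketone bodies, had 65.51 and 96.15 TPM and the highest ratio of the step, 0.79. Acaa1a, the peroxisomal thiolase, differed little at 72.03 and 77.79 TPM. Double bonds of unsaturated fatty acids are handled by Eci1, Eci2 and Decr1. Eci1 had 102.23 and 137.6 TPM (0.53), whereas Eci2 was level at 78.54 and 76.88 TPM. Its ratio of 0.07 (-0.00 to 0.15) changed sign to -0.03 when taken from deposited TPM. Decr1 was the least abundant of the step at 25.38 and 28.59 TPM.

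Electron transfer flavoprotein takes electrons from the acyl-CoA dehydrogenases. Its subunit genes were Etfb, the most abundant member, at 432.3 and 505.93 TPM, and Etfa, at 209.51 and 272.8 TPM. Etfb exceeded Etfa 2.06-fold and 1.85-fold. The dehydrogenase Etfdh, which hands the electrons to ubiquinone, stood at 73.86 and 109.37 TPM. All 3 were higher in replicate 2 with intervals apart, against 15.9% of all genes, at ratios of 0.33 for Etfb, 0.48 for Etfa and 0.68 for Etfdh.

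The wider pathway was followed through lists of genes outside the set. All 9 other mitochondrial oxidation genes were detected and higher in replicate 2 (median 0.40), among them the carnitine acetyltransferase Crat at 30.21 and 47.06 TPM (0.85) and the thioesterase Acot2 at 18.97 and 29.69 TPM (0.75). Of 11 peroxisomal genes 9 were detected in both pools, and 9 of the 10 with enough counts were higher in replicate 2 (median 0.27). The transporter Abcd2 was the exception at 2.24 and 1.20 TPM. Oxct1, the enzyme that activates ketone bodies for use, had 132.85 and 183.99 TPM (0.55).

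Regulators of the pathway were mixed. Replicate 2 had the higher level of 9 of these 15 genes and replicate 1 that of the other 6, with a median of 0.49. The coactivators Ppargc1a (17.09 and 32.44 TPM, 1.04) and Ppargc1b (7.57 and 15.09 TPM, 1.09), the estrogen-related receptor Esrrb (1.33 and 2.60 TPM, 1.13) and the AMP kinase subunit Prkaa2 (17.66 and 34.07 TPM, 1.05) differed 2-fold or more. Esrrg, another receptor of that family, had 18.62 and 32.86 TPM (0.97), and Esrra 17.67 and 23.33 TPM (0.49). The fatty acid receptors were low. Ppara had 51 and 75 counts (0.73 and 1.69 TPM), Pparg 41 and 57 counts and Ppard 73 and 57 counts. The retinoid partner Rxrb had 32.77 and 26.37 TPM, and Klf15, a factor of adult heart lipid metabolism, 9.27 and 6.59 TPM.

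**Figure D4:**
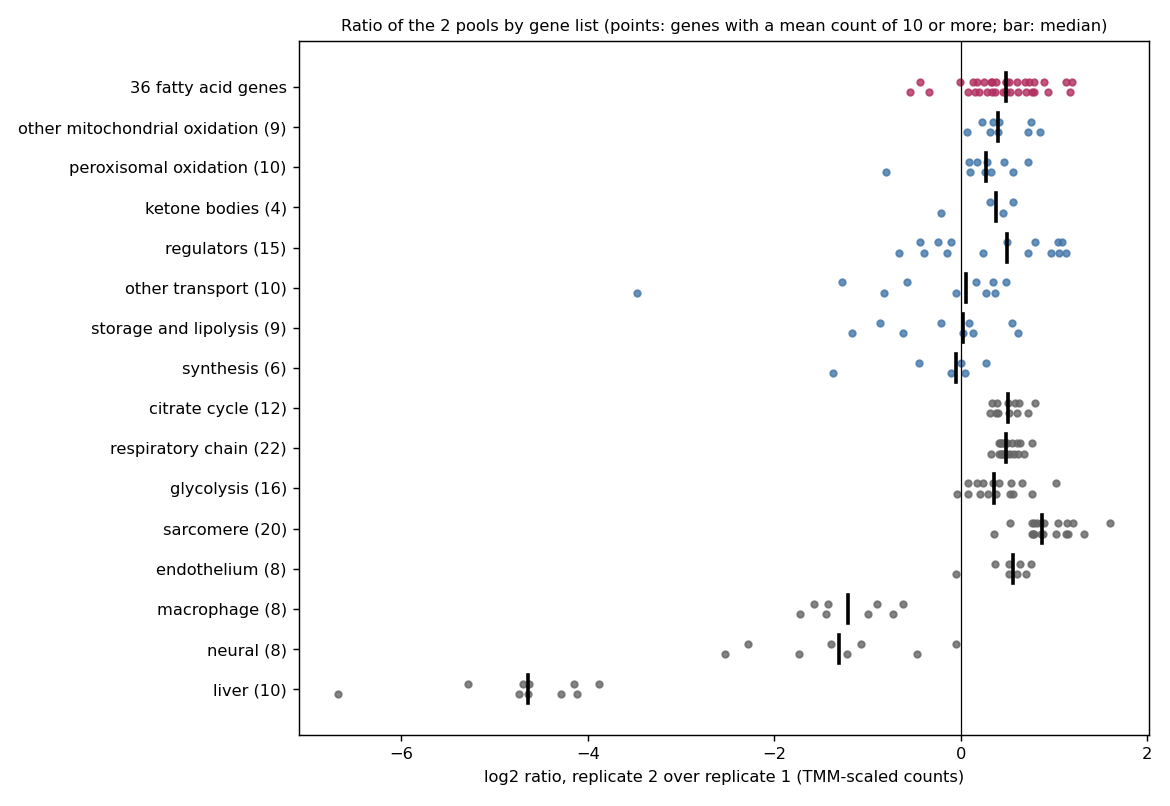
Log2 ratio of replicate 2 over replicate 1 for the genes with a mean count of 10 or more in each list (points) and the list median (bar), with the number of genes in brackets. Members (median 0.48) lay with the citrate cycle and respiratory chain lists, below sarcomere genes (0.87), while the liver markers (-4.64) lay far to the left.

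Nuclear receptors of the PPAR and estrogen-related families bind the letters AGGTCA, singly or as a repeat. On either strand, AGGTCA was found in the 250 bases before a RefSeq start of 7 of the 29 members with an entry. These were Acadm, Acadvl, Acsl6, Cd36, Cpt1a, Cpt1c and Echs1. By window it was found in 7 of 32 member windows, against 14.0% of all windows. The longer AAGGTCA, which contains it, was found for Acadm and Acsl6, in 2 of 32 member windows, against 4.08% of all windows. The direct repeat of AGGTCA with 1 base between was found for 0 members and in 0.0335% of windows. It is so rare among all windows that its absence from the member windows says little about the members. The 7 members without an entry, for which no window was searched, were Acaa2, Acat1, Cpt1b, Decr1, Fabp4, Fabp5 and Lpl. A match describes letters only. Shown are 3 members higher in replicate 2 and Cpt1c, which was higher in replicate 1, each free of annotated exons, on the strand of its gene. Capitals mark AGGTCA or its complement TGACCT. The printed stretches lie at chr3:153944644-153944893 (minus strand) for Acadm, chr5:17835897-17836146 (minus) for Cd36, chr19:3323051-3323284 (plus) for Cpt1a and chr7:44974852-44975101 (minus) for Cpt1c, all GRCm38.p6. For Cpt1a 234 of the 250 bases are printed, as the last 16 before the start are exonic.
Acadm: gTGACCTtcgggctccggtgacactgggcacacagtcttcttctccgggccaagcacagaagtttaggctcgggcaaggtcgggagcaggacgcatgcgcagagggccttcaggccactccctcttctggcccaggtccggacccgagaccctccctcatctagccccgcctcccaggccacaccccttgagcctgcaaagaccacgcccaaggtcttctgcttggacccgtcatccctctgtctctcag
Cd36: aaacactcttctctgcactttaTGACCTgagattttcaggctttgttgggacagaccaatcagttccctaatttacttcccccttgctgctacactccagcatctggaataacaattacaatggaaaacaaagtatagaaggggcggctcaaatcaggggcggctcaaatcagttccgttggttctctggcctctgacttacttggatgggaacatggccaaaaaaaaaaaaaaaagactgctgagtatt
Cpt1a: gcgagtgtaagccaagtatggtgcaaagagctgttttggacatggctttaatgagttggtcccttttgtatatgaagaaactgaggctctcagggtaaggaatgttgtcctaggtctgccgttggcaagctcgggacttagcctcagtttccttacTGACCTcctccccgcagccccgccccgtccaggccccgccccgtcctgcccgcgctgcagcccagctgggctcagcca
Cpt1c: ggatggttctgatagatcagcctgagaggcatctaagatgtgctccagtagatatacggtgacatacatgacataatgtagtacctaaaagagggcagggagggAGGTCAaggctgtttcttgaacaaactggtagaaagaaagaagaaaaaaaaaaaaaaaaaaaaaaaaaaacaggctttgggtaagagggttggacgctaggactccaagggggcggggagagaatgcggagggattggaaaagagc

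The match lay 243 bases before the RefSeq start of Acadm, 222 before that of Cd36, 88 before that of Cpt1a and 140 before that of Cpt1c. For Cd36 and Cpt1a that start lies inside the gene span given above, so these windows are not upstream of the whole gene. The letters stood before a RefSeq start of Acadm, Cd36 and Cpt1a, which were higher in replicate 2. They also stood before that of Cpt1c, which was higher in replicate 1. These windows were chosen as examples, and a link between the letters and the ratios was not tested.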

How the data were processed

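Total RNA-seq of E10.5 mouse heart was deposited as a gene table and a transcript table per library. The deposited tables give expected counts (estimated counts of reads per feature, not normalized), TPM and FPKM (length-scaled, over all features, spike-ins included), transcript shares as a percent of gene TPM, and credibility bounds of TPM, treated as a score. Per the labels the assembly is mm10, and the deposited description names annotation release M4. The quantifying program and the strand setting: not given in the sources used here. Names, types and positions came from GENCODE M21 (GRCm38). Of 43346 mouse genes, 42462 were matched.

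TMM factors were estimated from rounded expected counts (edgeR 4.0.16, limma 3.58.1, R 4.3.3), with a common biological coefficient of variation of 0.301 over 17557 genes. Log2 ratios used unrounded expected counts scaled by these factors, a prior count of 0.5 and genes with a mean count of 10 or more. Intervals of a ratio are exact binomial (Clopper-Pearson, 95%) on the 2 rounded counts. A count of 0 allows up to 3 counts, and intervals and this limit cover counting error only, as PCR copies of a molecule cannot be recognised without molecular identifiers. Pairs were compared as log2(TPM + 0.01). Near-identical copies were sought with blastn 2.17.0 (95% identity, 200 nt). Python 3.11.15 with pandas 2.3.3, numpy 2.4.6 and scipy 1.17.1 did the rest. No p-value was computed, because there was 1 group.

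The members and all lists were chosen with earlier results of these data known. Named were all 36 members, and of each other list up to 4 most abundant and up to 2 most differing genes. Main transcripts (20% or more of TPM) and some overlapping genes were also named. Others (Gpihbp1, Ppara, Pparg, Ppard, Klf15, Esrra, Lep) were chosen after their values were seen. Further overlaps with exons on the other strand include Etfdh (4930579G24Rik, 278 nt), Acaa1a (Myd88, 290 nt) and Echs1 (Paox, 142 nt). Alternatives were DESeq2 1.42.0 size factors, deposited TPM, spike-in scaling, other thresholds, posterior means, a length correction, each library alone and, added after seeing the data, protein-coding transcripts only.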

Additional observations from a re-analysis of the deposited data

How the results depend on the processing

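No count of members and no member median changed direction under the alternatives run. The count of members at least 2-fold higher in replicate 2 was 3 in every alternative except spike-in scaling, where it was 11. The share of all genes at that limit was 8.54% with spike-in scaling and 3.71% in the main setting. Spike-in scaling moved the median of all genes by 0.32 and deposited TPM moved it by -0.10. Relative to all genes, the member median lay 0.46 to 0.49 higher under every alternative. Spike-in scaling took Fabp5 to -0.02, Fabp4 to -0.12 and Cpt1c to -0.23. Acsl6 changed direction with it, and Acsl6 and Eci2 with deposited TPM. Higher in replicate 2 were 32 members (49.7% of all genes in the main setting), or 33 with spike-in scaling (76.3% of all genes). With deposited TPM the 32 members stood against 39.0% of all genes. Detection ranged from 33 members (5 TPM) to 36 (0.5 TPM), and with either library left out it was 35. Summed TPM was 3021.75 to 3875.53 with 1 library left out. No paired analysis was possible because there was 1 group. With 1 library left out, each pair ratio was that of the remaining library, so this is no further check of the 13 of 14 pairs. Fabp3 over Fabp5 was -0.85 or 0.68 (mean -0.08) on the log2 TPM scale. Each transcript share was likewise that of the remaining library, and Acacb-204 was 26.8% or 47.3%. Ratios of the pools need both libraries, so leaving one out was not run for them. Counts of 102 or fewer per library limit Fabp4 and Acsl6.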

Other observations

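Genes that store or make lipid were divided between the pools. Of 9 storage and lipolysis genes with a mean count of 10 or more, 5 were higher in replicate 2 and 4 in replicate 1 (median log2 ratio 0.03), and for 6 synthesis genes the split was 3 and 3 (median -0.05). Dgat2, which makes triglyceride, had 20.09 and 10.27 TPM (-0.87), and the desaturase Scd1 had 4.27 and 1.53 TPM (-1.38). The fatty acid synthase Fasn stood at 57.09 and 41.57 TPM, and Scd2, the more abundant desaturase, at 172 and 165.03 TPM. In the list of other transport genes (median 0.05), the very-long-chain synthetase Slc27a2 had 138 and 10 counts (-3.47) and the Lpl inhibitor Angptl4 had 16.41 and 6.21 TPM (-1.28). Liver markers were higher in the same pool, with a median of -4.64, and their part in these values was not tested.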
